A study of Homo sapiens with 12 samples.

Results

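The interferon regulatory factors examined here were IRF1, IRF2, IRF3, IRF4, IRF5, IRF7, IRF8 and IRF9, which were chosen by name as members of 1 family of transcription factors. They are 8 of the 58735 gene rows of the count table, and all 8 were among the 15471 genes with enough counts to be tested. Gene expression was measured by RNA sequencing in THP-1, an established human monocytic leukaemia line in a macrophage state. Cells received either a miR-122-5p mimic or a control mimic, with 6 libraries in each group. In both groups 30 nM of mimic was delivered with RNAiMAX for 24 h, the cells were rested, and lipopolysaccharide (LPS) was then given for 4 h. Both groups were therefore stimulated, and libraries of unstimulated or untransfected cells were not analysed here. The labels name 1 cell line and do not state that the libraries derive from independent cultures, and the p-values here reflect how much these libraries scatter, which may be technical.

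Interferon regulatory factors (IRFs) share a DNA-binding domain that reads the GAAA repeats of interferon-stimulated response elements. IRF3 and IRF7 wait in the cytoplasm until receptors such as TLR4, the LPS receptor, switch on the kinases TBK1 and IKKε, after which they enter the nucleus and induce IFNB1. The interferon that is made then acts through the ISGF3 complex, of which IRF9 is the DNA-binding part, and also induces IRF1. IRF2 occupies IRF1 sites and can oppose IRF1, IRF5 acts downstream of the adaptor MYD88 on inflammatory cytokine genes, and IRF4 and IRF8 bind composite sites with partners such as PU.1 in blood cells. Much of this control acts on protein activity and location, which counts of RNA do not measure.

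The sequences printed here are the mimic itself, a stretch of the IRF5 transcript that matches its seed, and the promoters that hold a motif searched for here. Mature miR-122-5p, from RefSeq (GRCh38.p14, chr18:58451088-58451109, + strand), is shown with its seed, bases 2 to 8, in capitals. Below it is the stretch of the IRF5 3′ untranslated region (UTR, GENCODE 29 on hg38) that pairs with the seed, with the match in capitals. It lies at chr7:128949907-128949914 (+ strand).
miR-122-5p: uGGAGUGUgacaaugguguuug
IRF5 3′ UTR: gtcatctctgcACACTCCAgcccactttct

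The IRF5 match was an 8mer, which pairs with the whole seed and has an A opposite the first base of the microRNA. It began at base 1089 of a 1217-base 3′ UTR and was present in 3 of the 8 coding IRF5 transcripts with an annotated stop. IRF5 was the only member with an 8mer in its longest annotated 3′ UTR, and shorter matches in the members are not reported here. An 8mer was present in 414 of the 12903 tested genes with a 3′ UTR (3.21%), and these genes had a median log2 fold change of -0.06. Among the 414, 132 were called lower and 90 higher, where 26.2% of all tested genes were lower and 24.3% higher. Of the 414, 28 had a lower log2 fold change than IRF5, or 12 once trends with GC content and length were removed. A match of letters is not evidence of pairing in the cells.

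RefSeq promoter windows, from 250 bases before to 50 bases after a start site, were found for 5 of the 8 members, 9 windows in all. The IRF1 window (GRCh38.p14, chr5:132490724-132491023, - strand) held TTCNNNGAA, the gamma-activated site motif known as GAS, from 124 to 116 bases before the start, and an NF-kB motif from 50 to 41 bases before it. The IRF9 window (chr14:24161015-24161314, + strand) held a GAS motif from 63 to 55 bases before the start. Both are printed along the strand of the gene with the motifs in capitals, because they were the member windows in which a motif was found.
IRF1 promoter: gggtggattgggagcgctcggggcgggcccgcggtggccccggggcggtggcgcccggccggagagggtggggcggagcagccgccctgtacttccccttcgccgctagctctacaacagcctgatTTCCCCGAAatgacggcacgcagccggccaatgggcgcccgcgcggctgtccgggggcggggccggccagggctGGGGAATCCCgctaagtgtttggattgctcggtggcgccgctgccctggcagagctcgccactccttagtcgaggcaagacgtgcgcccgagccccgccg
IRF9 promoter: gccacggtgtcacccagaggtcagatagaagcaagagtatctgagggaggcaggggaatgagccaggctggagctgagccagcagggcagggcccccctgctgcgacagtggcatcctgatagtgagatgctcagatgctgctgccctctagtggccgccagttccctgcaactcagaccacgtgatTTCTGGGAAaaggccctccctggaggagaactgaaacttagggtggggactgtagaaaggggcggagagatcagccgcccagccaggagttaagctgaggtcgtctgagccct

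Both strands were searched, and the GAS and NF-kB matches did not overlap each other. In all RefSeq windows of this length, 35116 in number, 7.66% held the GAS motif, 5.91% the NF-kB motif and 3.57% the response element motif GAAANNGAAA. Of the 9 member windows 0 held GAAANNGAAA. The IRF4, IRF5 and IRF8 windows held none of the 3 motifs. IRF2, IRF3 and IRF7 were not matched in the promoter table.

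The cells carried the markers of macrophages and not those of lymphocytes. Summed CPM, the read counts scaled by library size, of 8 macrophage markers ran from 2435 to 2961 in the miR-122-5p libraries and from 2405 to 2768 in the control libraries. The T cell genes CD3D, CD3E and CD2 had 0 counts in every library, and 4 T cell markers together stayed at or below 0.403 CPM with miR-122-5p and 0.273 CPM in controls. Of the 7 that were tested, CD14, CSF1R and FCER1G were lower with miR-122-5p (log2 fold changes -0.39, -0.36 and -0.38), TYROBP and ITGAM were higher (0.30 and 0.19), and LYZ and SPI1 were not called. With GC content and length trends removed 4 of the 7 were lower and 1 higher, and the part of these markers in the results was not tested. The eighth, CD68, was near 0 (0.239 CPM with miR-122-5p, 0.216 CPM in controls), and exons of other genes cover 85.8% of its own. Summed markers of B cells ran from 3.60 to 5.66 CPM with miR-122-5p and 2.68 to 5.02 CPM in controls, and those of neutrophils from 27.0 to 32.2 and from 25.3 to 42.2 CPM. Fibroblast markers summed to 3.87 to 5.93 CPM with miR-122-5p and 2.05 to 4.99 CPM in controls, and epithelial markers stayed at or below 0.738 and 1.06 CPM. Library totals were 29473750 to 39468157 counts. The slope of expression on transcript GC content, in log2 units per 10 percentage points, was 0.15 ± 0.07 in miR-122-5p libraries and -0.15 ± 0.12 in control libraries (SD, n = 6 each). GC content and length were therefore also removed in a repeat of the fit, and the GC slope was entered as a covariate in another. The values of both fits stand beside each member below where they matter, and the part of this slope in any result was not tested. The slopes ran from 0.03 to 0.23 with miR-122-5p and from -0.32 to 0.01 in controls. As these ranges did not overlap, the covariate and the mimic cannot be fully told apart. Standard errors of all 8 members were larger with the covariate, for IRF4 0.28 against 0.16. A call that ended with it therefore does not show that a gene was unchanged. In bulk RNA, fewer cells that express a gene and less RNA per cell cannot be told apart.

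With miR-122-5p, 4 members fell (IRF2, IRF4, IRF5 and IRF7), 1 rose (IRF3) and 3 did not pass the test (IRF1, IRF8 and IRF9). Calls were made by edgeR's quasi-likelihood test at a Benjamini-Hochberg adjusted p under 0.05 over all tested genes. That test called 50.5% of all tested genes, 26.2% lower and 24.3% higher, so 5 called members of 8 is close to the background. The libraries of the groups did not overlap for 3 members that were lower and 1 that was higher, where 16.1% of all tested genes were lower and 13.4% higher without overlap. The median log2 fold change of the 8 members was -0.19, and that of all tested genes was 0.01. IRF2, IRF4, IRF5 and IRF7 were called lower in every setting tried, while the number of members called higher ran from 0 to 2.

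**Figure D1:**
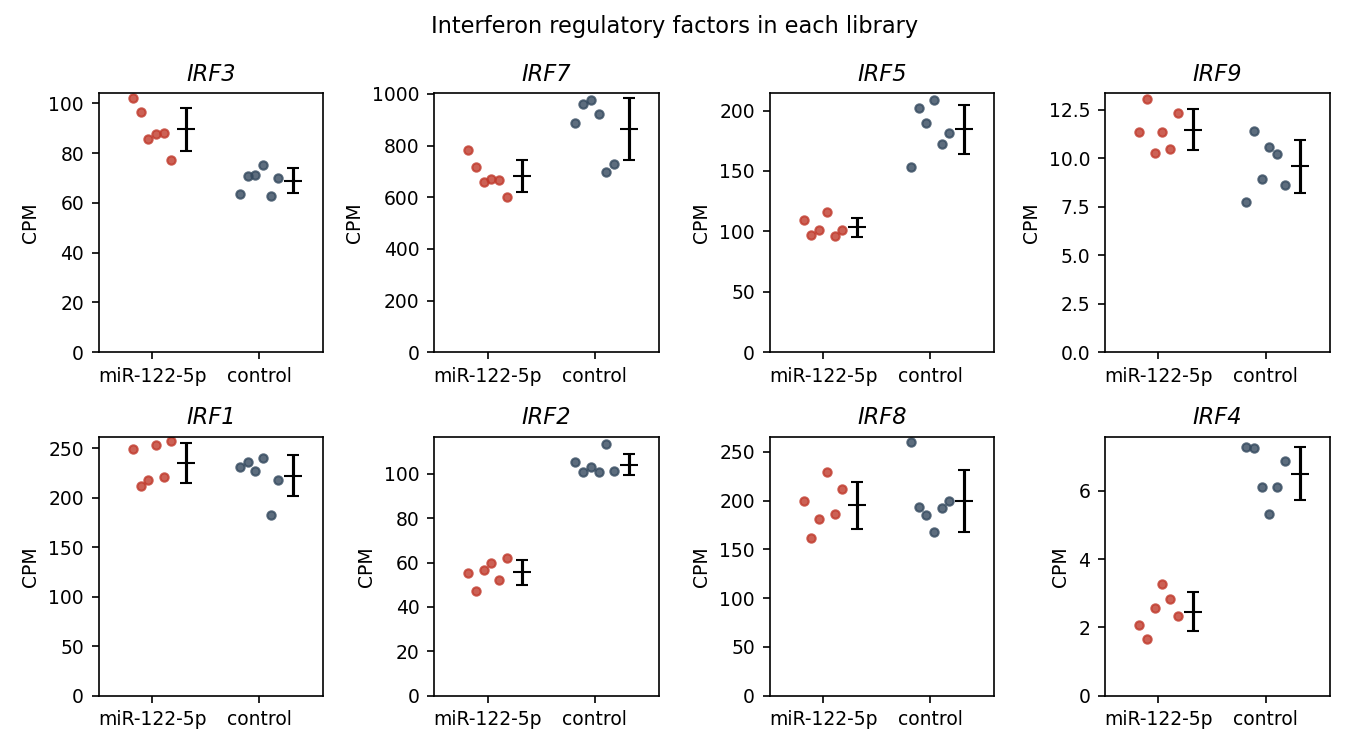
Normalised expression of the 8 interferon regulatory factors in each library, in CPM, with miR-122-5p libraries left and control mimic libraries right (points are libraries, bars mean and SD, n = 6 each). IRF2, IRF4 and IRF5 lay lower and IRF3 higher with miR-122-5p without overlap, while the IRF1, IRF7, IRF8 and IRF9 groups overlapped.

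Levels of different members were compared per kilobase of exon. IRF7 was the highest member in both groups, at 259.9 ± 23.7 CPM per kb with miR-122-5p and 328.5 ± 45.5 CPM per kb in controls (SD, n = 6 each). It made up 65.5% of the summed level of the family with miR-122-5p and 66.4% in controls. In the miR-122-5p libraries the order below IRF7 was IRF8, IRF1, IRF5, IRF3, IRF2, IRF9 and IRF4. The neighbours IRF8 and IRF1, and IRF5 and IRF3, overlapped in their library ranges there. In the control libraries the order was IRF7, IRF5, IRF8, IRF2, IRF1, IRF3, IRF9 and IRF4, with overlap between IRF5 and IRF8 and between IRF8 and IRF2. These orders are per kilobase of all exons. Per kilobase that no other gene overlaps, IRF1 (38.6 CPM per kb) came above IRF8 (37.8) and IRF3 (29.3) above IRF5 (23.6) with miR-122-5p, and IRF1 (36.5) above IRF2 (33.4) in controls. IRF5 stood at 23.6 ± 1.79 CPM per kb with miR-122-5p, against 42.2 ± 4.61 CPM per kb in controls, and IRF2 at 17.8 ± 1.74 against 33.4 ± 1.53 CPM per kb. IRF4 was the lowest member in both groups, at 0.416 ± 0.0968 CPM per kb with miR-122-5p and 1.10 ± 0.132 CPM per kb in controls. Summed over the 8 members, the level was 396.3 ± 25.8 CPM per kb with miR-122-5p and 493.1 ± 49.2 CPM per kb in controls.

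IRF3 and IRF7, the factors that TBK1 and IKKε phosphorylate, moved in opposite directions in the fit without GC correction. IRF3 (ENSG00000126456, chr19:49659569-49665875, - strand) is made without stimulation in most cells. Its lowest, median and highest levels were 77.2, 88.0 and 101.9 CPM with miR-122-5p, against 62.6, 70.5 and 75.1 CPM in controls. Every miR-122-5p library lay above every control library. IRF3 rose by a log2 fold change of 0.38 ± 0.07 (SE, edgeR quasi-likelihood, adjusted p = 0.00023, n = 6 each). With GC content and length trends removed the change was 0.13 (adjusted p = 0.0648), and with the GC slope as a covariate it was 0.09 (adjusted p = 0.606), so the call ended in both. The 1866 tested genes within 2 percentage points of the GC content of IRF3 had a median log2 fold change of 0.28. BCL2L12, an opposite-strand neighbour whose exons share 19.3% of the IRF3 exon length, was also higher (20.0 ± 2.03 CPM with miR-122-5p, 12.6 ± 2.97 CPM in controls), and without a stated strand setting their shared reads cannot be told apart.

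IRF7 (ENSG00000185507, chr11:612553-615999, - strand) is itself an interferon-induced gene and amplifies the response. Its lowest, median and highest levels were 600.1, 669.4 and 784.4 CPM with miR-122-5p, against 699.1, 905.8 and 975.9 CPM in controls. The groups overlapped, with 4 of the 6 miR-122-5p libraries below the lowest control library. IRF7 fell by 0.34 on the log2 scale (SE 0.09, edgeR quasi-likelihood, adjusted p = 0.00239). Its transcript is rich in GC (66.8%), and the 525 genes of like GC content had a median log2 fold change of 0.55. The change was -0.90 with GC content and length trends removed (adjusted p = 3.80e-09) and -0.68 with the GC slope as a covariate (adjusted p = 0.000322). Its size in these libraries thus ran from -0.34 to -0.90 on the log2 scale with the treatment of GC content, and its direction did not change.

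The balance of IRF7 over IRF3 within a library does not depend on library scaling. It can depend on GC content, which was 66.8% for IRF7 and 59.0% for IRF3. The log2 ratio of IRF7 to IRF3 had a lowest, median and highest value of 2.89, 2.94 and 2.96 in miR-122-5p libraries, against 3.38, 3.69 and 3.81 in control libraries. The groups did not overlap, and the miR-122-5p libraries lay very close together. The difference was -0.71 (two-sided exact permutation test over libraries, p = 0.00216, the smallest that 6 against 6 allows, and 0.00289 adjusted over the 4 ratios tested). Over the settings tried for this ratio the difference ran from -1.01 to -0.67.

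**Figure D2:**
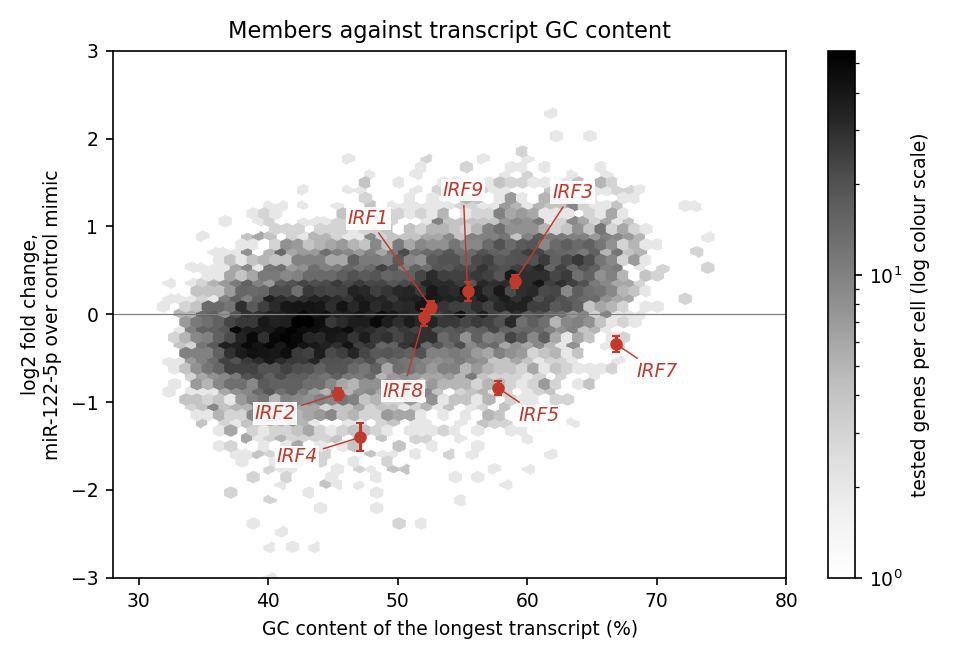
Log2 fold change (miR-122-5p over control mimic) of tested genes against the GC content of the longest transcript in percent, with the 8 members in red (bars are standard errors) and grey cells shaded by the number of genes on a log scale. Changes beyond 3 log2 units are outside the plot. The cloud rises with GC content, and IRF1, IRF3, IRF8 and IRF9 lie inside it. IRF2, IRF4, IRF5 and IRF7 lie furthest below the median of genes of like GC content.

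IRF5, the member that acts through MYD88 and drives inflammatory cytokines in macrophages, was lower in every miR-122-5p library. IRF5 (ENSG00000128604, chr7:128937612-128950035, + strand) had a lowest, median and highest level of 95.8, 100.8 and 116.0 CPM with miR-122-5p, against 153.3, 185.8 and 208.5 CPM in controls. The groups stood well apart. IRF5 fell by 0.84 on the log2 scale (SE 0.08, edgeR quasi-likelihood, adjusted p = 1.32e-08). Genes of like GC content went the other way, with a median of 0.23, and the change in IRF5 was -1.04 with GC content and length trends removed. This is the member whose 3′ UTR holds the 8mer printed above.

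IRF4 (ENSG00000137265, chr6:391739-411447, + strand), known in mice to compete with IRF5 for MYD88, showed the lowest log2 fold change of the family at a low level. Its counts ran from 49 to 252 per library, which makes it the least precise of the 8 members. The lowest, median and highest levels were 1.65, 2.45 and 3.27 CPM with miR-122-5p, against 5.32, 6.49 and 7.29 CPM in controls. The groups did not overlap. IRF4 fell by 1.40 on the log2 scale (SE 0.16, edgeR quasi-likelihood, adjusted p = 2.42e-07). The log2 ratio of IRF5 to IRF4 averaged 5.39 ± 0.31 with miR-122-5p and 4.82 ± 0.29 in controls (SD, n = 6 each), and these groups overlapped. The difference was 0.57 (exact permutation test, two-sided, p = 0.0108, adjusted p = 0.0108), but 0.25 with GC content and length trends removed (adjusted p = 0.115), which ended the call.

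IRF1 and IRF2 recognise the same sites, IRF1 mainly as an activator and IRF2 mainly as its competitor, and here the competitor alone was called. IRF2 (ENSG00000168310, chr4:184387713-184474580, - strand) had a lowest, median and highest level of 47.1, 55.9 and 62.3 CPM with miR-122-5p, against 101.0, 102.2 and 113.3 CPM in controls. No miR-122-5p library came near the lowest control library. IRF2 fell by 0.91 on the log2 scale (SE 0.07, edgeR quasi-likelihood, adjusted p = 1.25e-09). The change was -0.76 both with GC content and length trends removed and with the GC slope as a covariate.

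IRF1 (ENSG00000125347, chr5:132481609-132490798, - strand) is induced by LPS and by interferon. Its lowest, median and highest levels were 211.6, 235.2 and 257.4 CPM with miR-122-5p, against 182.0, 228.9 and 239.7 CPM in controls. The groups overlapped. The log2 fold change was 0.08 ± 0.08 with an interval from -0.07 to 0.23 (edgeR quasi-likelihood, adjusted p = 0.394), which does not show equal levels but bounds the difference. The log2 ratio of IRF1 to IRF2 had a lowest, median and highest value of 1.95, 2.08 and 2.17 with miR-122-5p, against 0.68, 1.14 and 1.25 in controls. Every miR-122-5p library was above every control library. The difference was 0.99 (exact permutation test, two-sided, p = 0.00216, adjusted p = 0.00289).

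An RNA from the opposite strand of the IRF1 locus was lower. IRF1-AS1, an antisense RNA listed as C5orf56 (ENSG00000197536, chr5:132410636-132488702, + strand), averaged 2.51 ± 0.626 CPM with miR-122-5p and 9.23 ± 1.10 CPM in controls (SD, n = 6 each). It fell by 1.87 on the log2 scale (SE 0.15, edgeR quasi-likelihood, adjusted p = 1.96e-09), and the groups did not overlap. Exons of C5orf56 and of AC116366.3, a gene with 0 counts, cover 22.0% of the IRF1 exon length. As the strand setting of the counting was not given, reads of the shared stretch cannot be assigned between IRF1 and its antisense RNA.

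IRF8, which with PU.1 directs monocyte and macrophage identity, did not pass the test. IRF8 (ENSG00000140968, chr16:85898803-85922609, + strand) had a lowest, median and highest level of 162.1, 193.0 and 229.3 CPM with miR-122-5p, against 167.5, 193.4 and 260.4 CPM in controls. The groups lay across each other. The log2 fold change was -0.03 ± 0.10 with an interval from -0.22 to 0.15 (edgeR quasi-likelihood, adjusted p = 0.789). It was 0.33 with the GC slope as a covariate and was not called there either (adjusted p = 0.114). The log2 ratio of IRF8 to IRF4 averaged 6.30 ± 0.25 with miR-122-5p and 4.93 ± 0.14 in controls (SD, n = 6 each), without overlap. The difference was 1.38 (exact permutation test, two-sided, p = 0.00216, adjusted p = 0.00289).

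IRF9, the DNA-binding part of ISGF3, lay at the threshold. IRF9 (ENSG00000213928, chr14:24161053-24166565, + strand) had a lowest, median and highest level of 10.3, 11.4 and 13.1 CPM with miR-122-5p, against 7.75, 9.58 and 11.4 CPM in controls. The groups overlapped, and 2 of the 6 miR-122-5p libraries were above the highest control library. The log2 fold change was 0.26 ± 0.11 (edgeR quasi-likelihood, adjusted p = 0.0505). IRF9 was called higher without miR-122-5p library 3 (adjusted p = 0.0375) or library 5 (adjusted p = 0.0460), and without control library 2 (adjusted p = 0.0192) or library 4 (adjusted p = 0.0398). With GC content and length trends removed the change was 0.11 (adjusted p = 0.355). A read-through gene on the same strand, AL136295.5, covers 48.4% of the IRF9 exon length, and reads that fall in both may not have been counted for either.

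**Figure D3:**
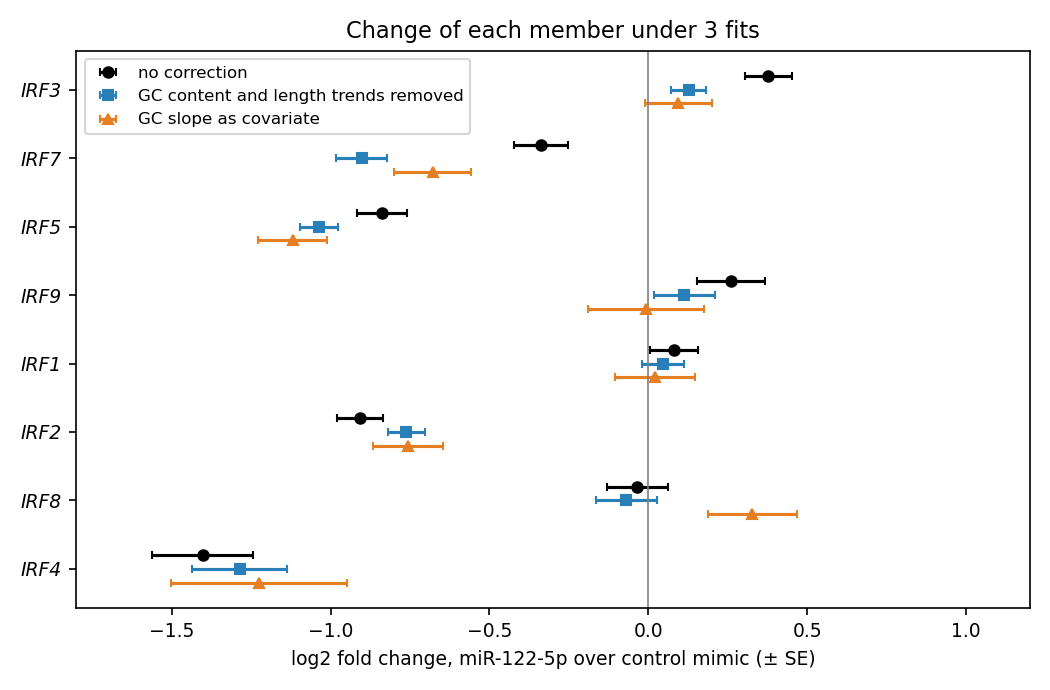
Log2 fold change of each member (miR-122-5p over control mimic, bars are standard errors) without correction, with GC content and length trends removed, and with the GC slope of each library as a covariate. IRF2, IRF4, IRF5 and IRF7 stay below 0 in all 3, and IRF3 is at 0.38, 0.13 and 0.09.

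**Figure D4:**
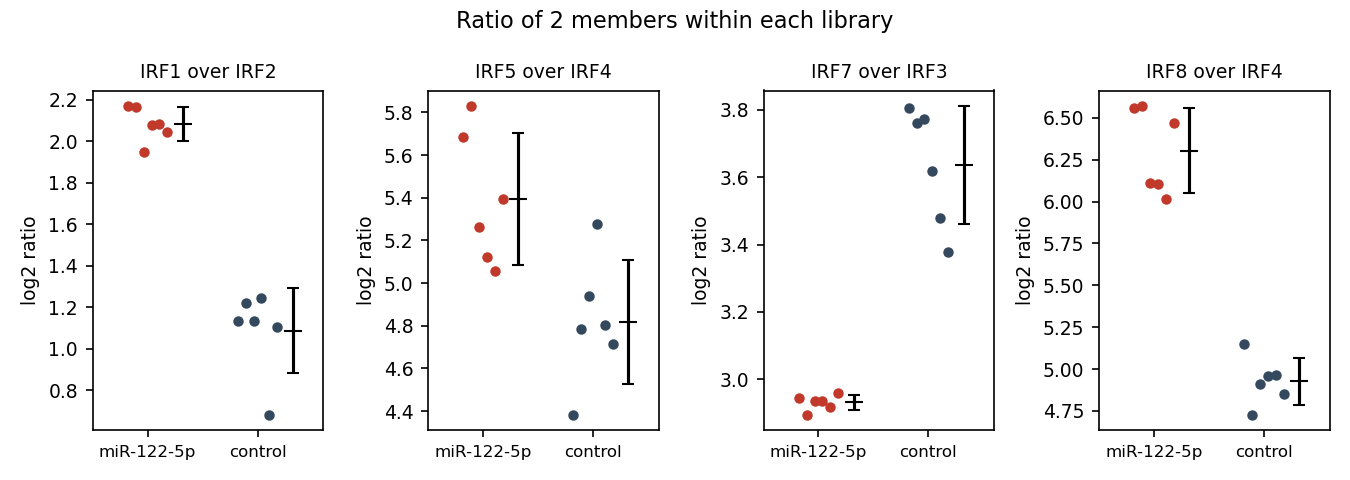
Log2 ratio of member pairs within each library, miR-122-5p left and control mimic right (points are libraries, bars mean and SD, n = 6 each). IRF1 over IRF2 and IRF8 over IRF4 were higher and IRF7 over IRF3 lower with miR-122-5p without overlap, and the IRF5 over IRF4 groups overlapped.

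The signalling proteins that switch on IRF3, IRF5 and IRF7 were mostly lower with miR-122-5p. Of 21 tested, 17 fell, 0 rose and 4 were not called, where 26.2% of all tested genes fell. This list and those below were written with earlier results of these data known, so the counts are not independent of the data. With the GC slope as a covariate 13 of the 21 were called lower. Their median log2 fold change was -0.62, against 0.01 over all tested genes. The genes of smallest p were RIGI and IFIH1, which sense viral RNA, MYD88, and TANK, a scaffold for TBK1. MYD88 averaged 184.9 ± 14.3 CPM with miR-122-5p and 396.6 ± 33.6 CPM in controls (SD, n = 6 each), a log2 fold change of -1.10 ± 0.07 (edgeR quasi-likelihood, adjusted p = 5.04e-11). The log2 fold changes of RIGI, IFIH1 and TANK were -1.74, -1.61 and -0.87. The IRF kinases, named after their values were seen, were also called: TBK1 fell by 0.62 and IKBKE (IKKε) by 0.28 on the log2 scale. With the GC slope as a covariate TBK1 was at -0.19 and no longer called (adjusted p = 0.464). TICAM1, the TRIF adaptor that links TLR4 to IRF3, had a log2 fold change of -0.20 and was not called (adjusted p = 0.132), nor were IRAK1 (0.12), TRAF3 (0.15) and IKBKB (0.10). TICAM1 was called lower with GC content and length trends removed (-0.58, adjusted p = 9.09e-06).

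Factors that bind DNA with or beside IRFs were lower in 9 of 12 cases, where 26.2% of all tested genes were lower, with a median log2 fold change of -0.38. With the GC slope as a covariate 6 of the 12 were called lower. STAT2, a partner of IRF9 in ISGF3, averaged 144.7 ± 10.5 CPM with miR-122-5p and 269.0 ± 13.1 CPM in controls (SD, n = 6 each). It fell by 0.90 on the log2 scale (SE 0.06, edgeR quasi-likelihood, adjusted p = 2.96e-10), and BATF3 and BATF, the small leucine zipper partners of IRF4 and IRF8, fell by 1.10 and 0.80. JUN was the 1 partner called higher (0.40, adjusted p = 0.00056), a call that ended with the GC slope as a covariate (-0.03). SPI1, which encodes PU.1, and IKZF1 were not called, at 0.17 and 0.15. SPI1 was called lower, at -0.32, with GC content and length trends removed.

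Repressors of IRFs and of their signalling were called in both directions in the fit without GC correction. Of 11 tested, 4 fell, 1 rose and 6 were not called, where 26.2% of all tested genes fell and 24.3% rose. Their log2 fold changes had a median of -0.05. With the GC slope as a covariate 4 of the 11 were called lower and 0 higher. USP18, an interferon-induced brake on the interferon receptor, fell by 1.30 on the log2 scale (SE 0.08, edgeR quasi-likelihood, adjusted p = 5.64e-11). RBCK1 and TRIM21, ubiquitin ligases reported to act on IRF3, fell by 0.76 and 0.47, and FOXO3, which represses Irf7 in mouse macrophages, fell by 0.23. FOXO3 was no longer called with GC content and length trends removed (-0.16, adjusted p = 0.0561). The IRF2-binding corepressors IRF2BP1, IRF2BP2 and IRF2BPL had log2 fold changes of 0.01, 0.20 and 0.19, and UBE3C, OTUD5 and SOCS1 had 0.16, -0.05 and -0.16, none of them called. With GC content and length trends removed 6 of the 11 were lower and 3 higher. SOCS1 was then called lower at -0.79 (adjusted p = 6.11e-07), IRF2BP1 at -0.61 (adjusted p = 2.20e-05) and OTUD5 at -0.32 (adjusted p = 0.00018), while UBE3C and IRF2BP2 were called higher at 0.27 and 0.29.

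The interferon genes that IRF3 and IRF7 induce were much lower. IFNB1 averaged 7.68 ± 1.25 CPM with miR-122-5p and 115.1 ± 17.6 CPM in controls (SD, n = 6 each), a log2 fold change of -3.90 ± 0.12 (edgeR quasi-likelihood, adjusted p = 4.41e-16). IFNL1, a type III interferon, fell by 3.70 on the log2 scale. IFNL3 had 0 counts in all miR-122-5p libraries and 632 in all control libraries, at least 204-fold lower against a floor of 3 counts over the group. IFNL2 had 2 counts in all miR-122-5p libraries and 312 in all control libraries, and reads may be split between these near-identical genes. IFNA1, IFNA2, IFNG and the receptor gene IFNLR1 were not tested, with 0 counts in every library. Among the receptors, IFNAR1 and IFNGR1 fell by 0.28 and 0.25, and both calls ended with GC content and length trends removed (-0.02 and 0.03). IFNAR2 (-0.15), IFNGR2 (0.05) and IL10RB (0.50) were not called. Exons of other genes cover 83.2% of the IFNAR2 exon length and 38.1% of that of IL10RB. IL10RB had only 11 to 47 counts per library, and its interval ran from -0.17 to 1.16.

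Target genes of IRF3, of ISGF3 and of IRF1 were lower. All 12 tested targets of IRF3 fell, with a median log2 fold change of -1.65, as did all 16 targets of ISGF3 (median -1.18) and all 16 targets of IRF1 (median -2.28), where 26.2% of all tested genes fell. With the GC slope as a covariate 12 of the 12, 14 of the 16 and 15 of the 16 were called lower. The calls that ended there were those of the ISGF3 targets IFI6 (-0.38, adjusted p = 0.0792) and BST2 (-0.38, adjusted p = 0.0528) and of the IRF1 target VCAM1 (-0.10, adjusted p = 0.918), which had changes of -0.24, -0.29 and -1.08 without it. These lists overlap in what induces them, since many interferon-stimulated genes respond to several IRFs. The lists were also written with earlier results of these data known, so the counts cannot be read as an independent comparison with the background. RSAD2, an antiviral enzyme, averaged 74.9 ± 15.4 CPM with miR-122-5p and 789.8 ± 97.0 CPM in controls (SD, n = 6 each), and TNFSF10 and IFIT1 fell by 3.13 and 1.65 on the log2 scale. Among ISGF3 targets the genes of smallest p were MX2, IFI44L, IFI27 and IFI44, with log2 fold changes of -1.60, -3.18, -2.44 and -2.17. Among IRF1 targets they were CASP1, which encodes an inflammasome protease, and the guanylate-binding proteins GBP3, GBP1 and GBP4, with log2 fold changes of -2.24, -2.16, -3.17 and -3.22. GBP1 stood at 49.4 ± 13.3 CPM with miR-122-5p and 444.6 ± 46.4 CPM in controls. IRF1 RNA itself averaged 235.1 ± 20.2 CPM with miR-122-5p and 222.2 ± 21.1 CPM in controls.

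Targets of IRF5 and IRF4 moved in mixed directions, and those of IRF8 were mostly lower. Of all tested genes 26.2% fell and 24.3% rose. Of 6 tested IRF5 targets 3 fell, 1 rose and 2 were not called: IL6 fell by 2.77, IL12A by 2.25 and TNF by 0.46 on the log2 scale, while IL23A rose by 0.71. IL1A (-0.14) and IL1B (0.08) were not called, and IL1B was high in both groups, at 7722 ± 899.8 CPM with miR-122-5p and 7287 ± 374 CPM in controls. Of 8 tested IRF8 targets 6 fell and 1 rose, with CYBB, the phagocyte oxidase subunit, at -1.65, CIITA at -2.40, PML at -0.91 and KLF4 at -0.68, CST3 higher at 0.36 and BCL2L1 not called at 0.22. The CST3 value was 0.06 with the GC slope as a covariate, and not called. With that covariate 5 of the 8 IRF8 targets were called lower. Of 4 tested IRF4 targets the chemokine gene CCL22 rose by 1.42 (66.7 ± 6.78 CPM with miR-122-5p, 24.8 ± 1.69 CPM in controls), MYC rose by 0.68 and PRDM1 fell by 0.43. With the GC slope as a covariate MYC (0.41, adjusted p = 0.0734) and PRDM1 (-0.19, adjusted p = 0.326) were not called. IL12A and CIITA had low counts, from 4 to 69 and from 24 to 211 per library. Both are also among the IRF1 targets counted above. The lists are of known targets in other cells and say nothing of binding in these libraries.

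**Figure D5:**
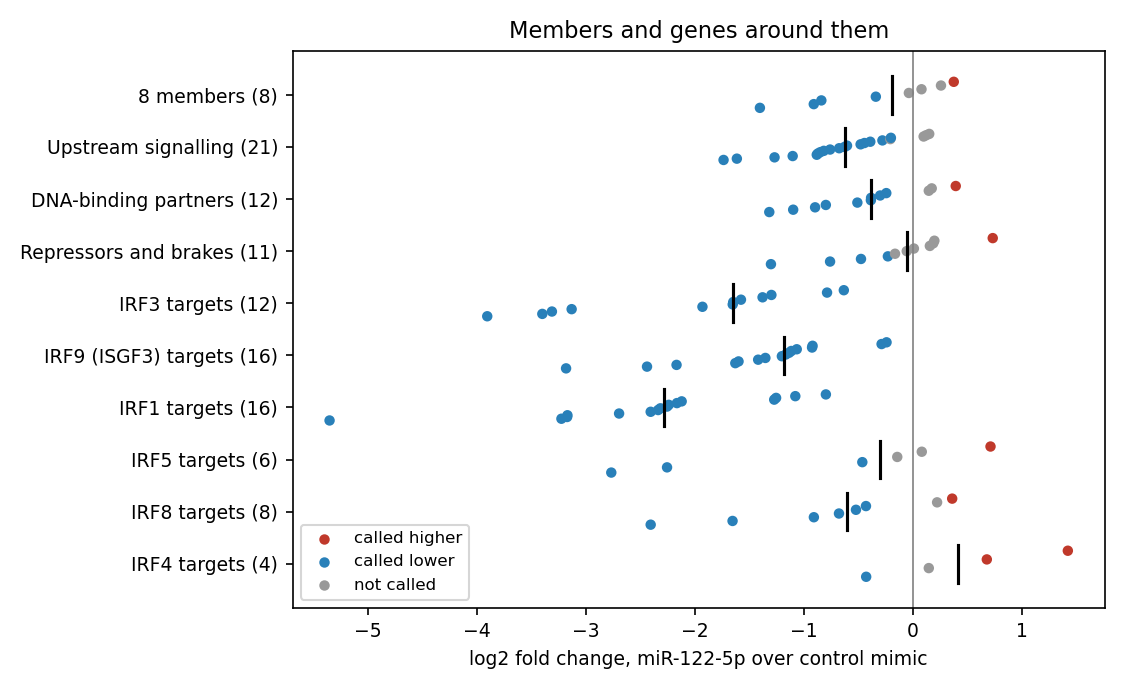
Log2 fold change (miR-122-5p over control mimic) of each tested gene in the lists around the IRF family, 1 point per gene, with called higher in red, called lower in blue, not called in grey and the median of each list as a black line. The IRF3, ISGF3 and IRF1 target lists lie wholly below 0, and the brakes and the IRF4 and IRF5 target lists lie on both sides of it.

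The genes whose levels followed each member most closely within the groups were found from log2 CPM centred on each group's mean, over the 12 libraries and 8336 genes whose log2 CPM averaged 3 or more. IRF2 was followed by the interferon-induced genes IFIT5 (Pearson r = 0.92) and IDO1 (0.92) and by FASTKD1 (0.91). IRF7 was followed by CFD, TMEM8A and COL6A2 (0.96, 0.95 and 0.95), IRF5 by FKBP9, RANBP3 and TMEM63B (0.95, 0.94 and 0.94), and IRF3 by LGALS9, TMEM161A and SND1 (0.94, 0.93 and 0.93). IRF1 was followed by STARD8, TTF2 and PCSK7 (0.94, 0.89 and 0.88), and IRF8 by HCAR3, SVIL and SNN (0.92, 0.92 and 0.91). IRF9 was followed by CTSF, KAT5 and CINP (0.87, 0.87 and 0.86), and IRF4 by OXSR1, PRRG4 and EPB41 (0.85, 0.85 and 0.84). These are the highest of many values. Spearman rho, a correlation of ranks, was lower for some, such as IRF2 with IDO1 (0.78) and IRF4 with EPB41 (0.59). It was higher for others, such as IRF1 with TTF2 (0.94). The genes of a library share its depth and GC slope, which differed between libraries, so the values are descriptions.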

How the data were processed

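RNA of 12 libraries of THP-1 cells was sequenced. RNA was extracted with Trizol and libraries made from 1 µg with an NEBNext Ultra kit, per the labels' protocols. The authors deposited raw read counts per gene. HISAT2 2.0.5, featureCounts 1.5.0-p3 and hg38 are named in the submitters' processing notes, and the strand setting is not given in the sources used here. Control columns were matched to control titles by name and number.

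All 58735 identifiers were found in GENCODE 29. In R 4.3.3, filterByExpr kept 15471 genes. Groups were compared by edgeR 4.0.16's quasi-likelihood test with TMM factors and Benjamini-Hochberg adjustment, and CPM values use those factors. Scripts were tested on simulated data. Ratios of members were tested by exact permutation over libraries. DESeq2 1.42.0, limma 3.58.1 (voom), other scaling, filters, GC and length corrections (splines of 4 degrees of freedom), a replicate block and omission of libraries were alternatives.

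The members and lists were chosen with earlier results of these data known. Named genes were the members, IRF1-AS1, genes overlapping a member, the 3 closest genes to each member, and from each list up to 4 called genes of smallest p and every uncalled gene. Others are named as the few called in 1 direction or as chosen after their values were seen. Some values that this rule selects are not reported here.

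Within a group, no pair of libraries was a copy of another (chi-square per degree of freedom 7.89 to 73.3).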

Additional observations from a re-analysis of the deposited data

Results flagged for a closer look

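In each group of 6 libraries, the gap of the highest and lowest library to its neighbour was set against the group's range by Dixon's criterion at its 95% critical value. Of 24 groups of values 4 passed it, where chance passes about 1 in 20. All 4 were in control libraries. Control library 5 was the lowest of its group for IRF1, at 182.0 CPM, and the highest for IRF2, at 113.3 CPM. It was accordingly the lowest control library in the log2 ratio of IRF1 to IRF2, at 0.68. Control library 1 was the highest of its group for IRF8, at 260.4 CPM.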

How the results depend on the processing

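Under DESeq2, limma-voom, RLE factors, library totals, a 1 CPM filter and no filter, an adjusted p under 0.01, the replicate block, the GC corrections and omission of libraries, 4 members were lower each time. The number of members called higher was 2 under DESeq2, limma-voom, RLE factors, library totals, the 1 CPM filter and the replicate block, where IRF9 joined IRF3. It was 0 with GC content and length trends removed and with the GC slope as a covariate, where IRF3 was at 0.13 and 0.095. It was 1 to 2 when single libraries were left out. IRF9 was at 0.27 under DESeq2 (adjusted p = 0.0484), 0.26 under limma-voom (0.0490), 0.27 with RLE factors (0.0438), 0.30 with library totals (0.0241), 0.27 with the 1 CPM filter (0.0390) and 0.27 with the replicate block (0.0491). With single libraries left out it ran from 0.21 to 0.32. The GC slope as a covariate left 3004 calls (1887 lower, 1117 higher), against 7810 (4054 lower, 3756 higher). The log2 ratio of IRF5 to IRF4 was 0.25 with trends removed (a setting added after seeing the data), and with the replicate block 0.57 (adjusted p = 0.0625). Called in the other direction were IRAK1 (-0.26), SPI1 (-0.32) and IRF2BP1 (-0.61) with trends removed, and SPI1 (-0.33) and IL1A (0.37) with the GC slope as a covariate. The cause was not tested. Replicate numbers did not pair libraries (r of same-numbered deviations -0.10 to 0.07), and 1 of 6 correlated best with its own number. Counts of 49 to 252 limit IRF4. Without control libraries 1 and 6, added after seeing the data, IRF9 was at 0.16 (adjusted p = 0.237).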
